A study of Citrullus lanatus with 30 samples.

Results

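The 54 genes described here have descriptions that name enzymes of alcohol, aldehyde and terpene metabolism, the chemistry behind much of a fruit's smell. They were chosen by words in the deposited description of each gene, by a rule that holds no expression value but was written with earlier results of these data known. The words were alcohol dehydrogenase, pyruvate decarboxylase, alcohol acyltransferase, alcohol acetyltransferase, aldehyde dehydrogenase, hydroperoxide lyase and terpene synthase. Of the 22596 genes in the table, 57 matched, and 2 cinnamyl alcohol dehydrogenases and 1 further gene were left out by the same rule. The 54 genes comprise 21 alcohol dehydrogenases, 6 pyruvate decarboxylases, 18 aldehyde dehydrogenases and 9 terpene synthases, while 0 descriptions name an acyltransferase, an acetyltransferase or a hydroperoxide lyase by these words. The match is by name alone. It brought in 3 semialdehyde dehydrogenases, which act on amino acid intermediates, and 2 phosphopantetheinyl transferases that are named after the dehydrogenase they modify.

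The RNA came from the flesh of watermelon (Citrullus lanatus) fruit of the wild type (WT) and of a mutant line named clnor in the labels, at 5 ages from 10 days after pollination (DAP) through 18, 26 and 34 to 42 DAP. Each genotype and age had 3 libraries, which makes 10 groups and 30 libraries. Neither the allele nor the parent line nor the number of fruits behind a library is given by the labels, and no gene description names the mutated gene, so its level was not checked. The comparison of the genotypes at each age shows which of these genes differ in the mutant, and the comparison of ages within a genotype shows how they move as the fruit develops.

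Pyruvate decarboxylase turns pyruvate into acetaldehyde, the entry to ethanol fermentation, and alcohol dehydrogenases interconvert aldehydes and alcohols. Aldehyde dehydrogenases oxidise aldehydes to acids and so draw on the same substrates. Watermelon aroma is known mainly for straight-chain aldehydes and alcohols made from fatty acids. Terpene synthases make volatile terpenes from prenyl diphosphates.

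Levels are TPM (relative transcript abundances, scaled for gene length and sequencing depth), so levels of different genes can be set side by side. TPM sums were 970727 to 985840 per library and the depth of each library is unknown. Differences are on the log2(TPM + 1) scale, given with the standard error (SE) of the fit and the p-value of limma adjusted over 16503 tested genes. A gene was called at an adjusted p below 0.05. Of the 30 libraries, 5 correlated best with a group other than their own. WT 18 DAP replicate 3 was nearest the clnor 18 DAP group, and clnor 18 DAP replicate 3 was nearest the WT 18 DAP group. Whether the labels of these 2 libraries were exchanged was not tested, and such an exchange would touch the 18 DAP values, the average over ages and the test of change with age. The others were clnor 10 DAP replicates 1 and 3 and clnor 34 DAP replicate 2.

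Summed levels of marker genes for other tissues differed between the genotypes for some tissues and overlapped for others. For seed, 27 genes matched words for seed storage proteins, and 5 of them were listed at 0 in every library. Some are described more broadly, as of the lipid-transfer protein and 2S albumin superfamily. Summed over the 27, WT libraries at 34 DAP held 748 to 1812 TPM and clnor libraries 133 to 153 TPM. The seed sums were apart at 26 DAP (388 to 1381 TPM in WT, 89.9 to 105 TPM in clnor) and 42 DAP (302 to 428 TPM in WT, 88.6 to 103 TPM in clnor) as well. A few abundant genes carried these sums. Those with the highest means over the 30 libraries were the 11S globulin-like Cla97C05G092030 (494 TPM) and Cla97C06G120660 of that superfamily (228 TPM). Of the 16 tested genes of the seed list 1 was called higher (6.25% against 27.4% of all tested genes) and 1 lower (6.25% against 12.1%) in clnor at 34 DAP. Phloem markers (22 genes, 2 at 0 throughout) summed to 111 to 1005 TPM in clnor and 90.7 to 151 TPM in WT at that age, and the genotypes overlapped. Chlorophyll-binding proteins of green rind (20 genes, 1 at 0) summed to 591 to 2237 TPM in clnor and 788 to 1219.6 TPM in WT, again with overlap. Genes matched by words for epidermis (104 genes, 23 at 0) summed to 282 to 345 TPM in clnor and 353 to 358 TPM in WT. The words were cutin, cuticle, 3-ketoacyl-CoA synthase and GDSL. Some of these genes are described only as GDSL esterase/lipase, a name that gives no tissue. Genes of ripe flesh (10 genes for carotenoid synthesis, galactosidase and sugar transport, 0 at 0) summed to 965 to 1289 TPM in clnor and 3098 to 3939 TPM in WT at 34 DAP. That sum rested mainly on the alkaline alpha-galactosidase Cla97C04G070460 (mean of 1573 TPM over the 30 libraries). Of the 10 genes 3 were called higher in clnor (30% against 27.4% of all tested genes) and 2 lower (20% against 12.1%). Their median log2 difference was 0.18, where that of all tested genes was 0.20. The part of these tissues in the results below was not tested.

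Of the 54 genes, 35 reached 1 TPM in at least 3 libraries and were tested, and 28 of these stood at 1 TPM or more in all 30 libraries. The other 19 were too low, and 11 of them were listed at 0 in every library. The untested genes were 5 alcohol dehydrogenases (at most 0.15 TPM in any library, among them a polyvinylalcohol dehydrogenase-like gene at 0), 5 pyruvate decarboxylases (at most 0.5 TPM), 2 aldehyde dehydrogenases (at most 0.42 TPM) and 7 terpene synthases (at most 0.07 TPM). The tested genes were 16 alcohol dehydrogenases, 1 pyruvate decarboxylase, 16 aldehyde dehydrogenases and 2 terpene synthases.

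With all libraries in the fit, the calls between the genotypes fell at 26 DAP and later. At 10 DAP limma called 0 of the 35 tested genes, where 0.473% of all tested genes were called, and 8 of the 35 had an unadjusted p below 0.05. At 18 DAP it called 0 again (2.35% of all tested genes), and 11 had an unadjusted p below 0.05. With replicate 3 of both genotypes left out 9 were called, but the share of all genes called in that fit was not counted. At 26 DAP 8 were called (22.9% against 15.5% of all genes), 5 higher in clnor (14.3% against 9.66%) and 3 lower (8.57% against 5.80%). At 34 DAP 25 were called, 71.4% of the 35 against 39.4% of all tested genes. Of these, 13 were higher (37.1% against 27.4% of all genes) and 12 were lower (34.3% against 12.1%). At 42 DAP 18 were called (51.4% against 32.6%), 9 higher (25.7% against 18.8%) and 9 lower (25.7% against 13.8%). Averaged over the ages, 24 were called (68.6% against 48.2%), 13 higher (37.1% against 31.8%) and 11 lower (31.4% against 16.4%).

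The split at 34 DAP depended on scaling, since the median of all genes was 0.199 higher in clnor on the log2 scale as deposited, 0.121 higher after upper-quartile scaling and -0.0128 after quantile normalization. The calls were then 10 higher and 12 lower with upper-quartile scaling, and 8 higher and 14 lower with quantile normalization. The median difference of the 35 genes as deposited was 0.05. Without clnor 34 DAP replicate 2 the call count was 22. The share of all tested genes called was not counted with either scaling or without that library, so these counts have no background beside them. The 3 libraries of each genotype did not overlap in 4 of the 35 genes at 10 DAP (11.4% against 13.1% of all tested genes) and in 7 at 18 DAP (20% against 12.8%). The number was 16 at 26 DAP (45.7% against 36.8%), 25 at 34 DAP (71.4% against 52.2%) and 22 at 42 DAP (62.9% against 47.8%).

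**Figure D1:**
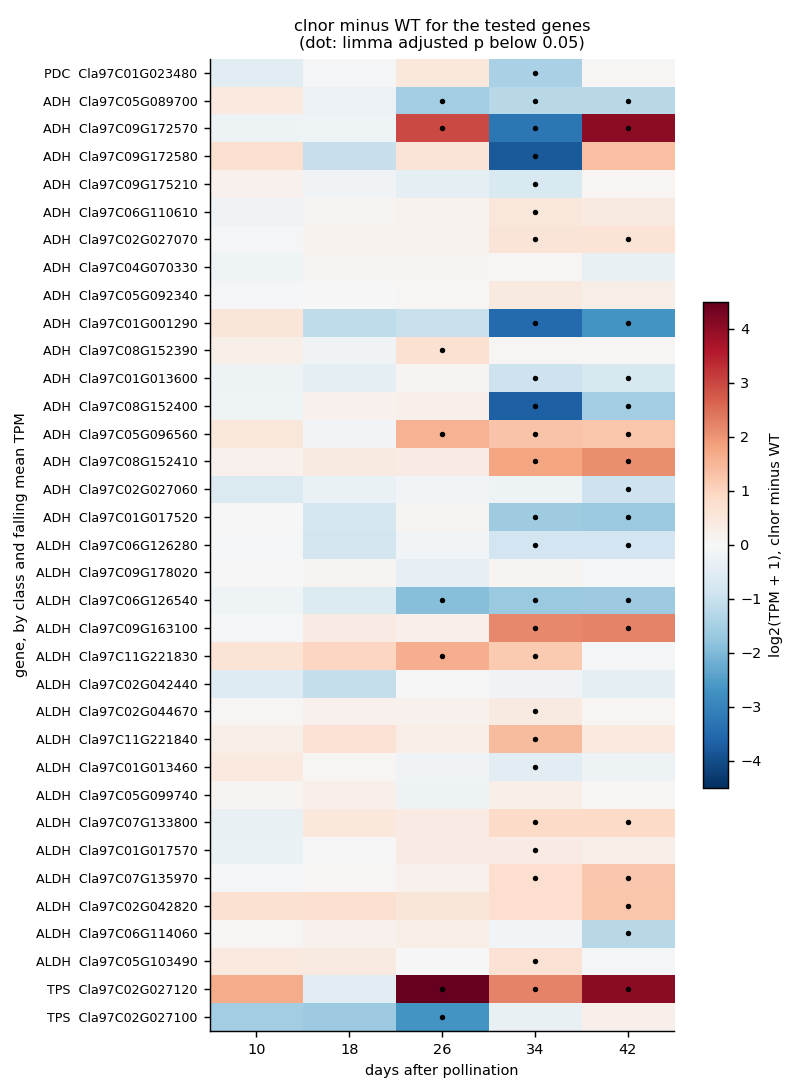
The log2(TPM + 1) difference of clnor minus WT (colour, red higher and blue lower in clnor) for the 35 tested genes (rows, by class and falling mean TPM) at 5 ages (columns, days after pollination), with a dot where limma's adjusted p was below 0.05. Dots are absent at 10 and 18 DAP and number 25 at 34 DAP, where the alcohol dehydrogenase rows hold 8 lower and 4 higher calls and the aldehyde dehydrogenase rows 3 lower and 8 higher calls.

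Of the 6 pyruvate decarboxylases counted here, Cla97C01G023480 was the one high enough to test. Its WT libraries at 34 DAP held 53.3, 35.5 and 58.0 TPM, and its clnor libraries 16.6, 17.9 and 15.9 TPM. All WT libraries lay above all clnor libraries at that age. The log2 difference was -1.46 ± 0.21 (SE, n = 3 each, adjusted p = 1.23e-05). At 42 DAP WT held 15.1 ± 2.76 TPM (SD, n = 3) and clnor 15.6 ± 0.148 TPM, and the gene was not called. The WT level at 34 DAP was the highest of the 10 groups for this gene. Whether fewer cells of a type or less RNA per cell lies behind such a difference cannot be told apart in bulk RNA.

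The alcohol dehydrogenases split at 34 DAP into 8 genes lower (50% against 12.1% of all tested genes) and 4 higher in clnor (25% against 27.4%) of 16 tested. The lower set held the genes with the largest differences. Cla97C09G172570 and Cla97C09G172580 carry consecutive identifiers and the plain description alcohol dehydrogenase. In WT at 34 DAP Cla97C09G172570 held 1337, 1170.05 and 1402 TPM. In clnor at 34 DAP it held 62.1, 709 and 55.4 TPM. The groups do not overlap, and clnor replicate 2 stands an order of magnitude above the other clnor libraries. The log2 difference was -3.25 ± 0.62 (SE, adjusted p = 0.0002465), and -4.45 ± 0.42 without that replicate (adjusted p = 2.085e-07).

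Cla97C09G172580 followed at 34 DAP, with 1236, 989 and 729.58 TPM in WT and 61.0, 167 and 31.8 TPM in clnor. Again clnor replicate 2 was the highest of its group, and the groups do not overlap. The log2 difference was -3.79 ± 0.57 (SE, adjusted p = 1.868e-05), and -4.42 ± 0.58 without that replicate (adjusted p = 7.107e-06).

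The peak of Cla97C09G172570 in WT was brief. At 26 DAP WT libraries held 1.47, 1.71 and 5.91 TPM while clnor libraries held 20.6, 40.3 and 24.3 TPM. At 42 DAP WT libraries held 22.4, 8.34 and 14.2 TPM while clnor libraries held 182, 259.62 and 300.44 TPM. So the gene was lower in clnor at 34 DAP and higher in clnor on both sides of it, without overlap at any of the 3 ages. The log2 differences were 2.98 ± 0.62 at 26 DAP (adjusted p = 0.002017) and 4.03 ± 0.62 at 42 DAP (adjusted p = 3.006e-05). The latter was the largest rise of an alcohol dehydrogenase at any age. Cla97C09G172580 was not called at 26 or 42 DAP, and its clnor libraries at 42 DAP held 83.0, 200.28 and 197 TPM against 82.9, 44.1 and 51.0 TPM in WT.

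The pair tended to move together, with a correlation of 0.79 on the log2(TPM + 1) scale, but not as a fixed unit. The ratio of Cla97C09G172570 to Cla97C09G172580 ran from 0.0446 to 4.25 over the 30 libraries, with a median of 0.673. Genes of like sequence can share reads, and how such reads were assigned was not stated in the labels, so single genes of such a pair are less certain.

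Cla97C08G152390, Cla97C08G152400 and Cla97C08G152410, all alcohol dehydrogenase-like 7, carry 3 consecutive identifiers and behaved in 3 ways. Cla97C08G152400 held 89.8, 71.1 and 41.6 TPM in WT at 34 DAP and 2.77, 10.03 and 2.13 TPM in clnor. The groups do not overlap, with a log2 difference of -3.69 ± 0.44 (SE, adjusted p = 9.943e-07). It remained lower at 42 DAP, with 16.3 ± 6.41 TPM (SD, n = 3) in WT and 4.65 ± 1.42 TPM in clnor and a log2 difference of -1.57 ± 0.44 (SE, adjusted p = 0.007794).

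Cla97C08G152410 went the other way. It held 1.89, 1.63 and 2.79 TPM in WT at 34 DAP and 9.8, 10.3 and 8.46 TPM in clnor, a log2 difference of 1.77 ± 0.18 (SE, adjusted p = 1.431e-07). At 42 DAP it held 1.18 ± 0.559 TPM (SD, n = 3) in WT and 8.06 ± 0.942 TPM in clnor, a log2 difference of 2.08 ± 0.18 (SE, adjusted p = 1.527e-08). At both ages every clnor library lay above every WT library. At 34 DAP Cla97C08G152390 stood at 39.2 ± 3.27 TPM (SD, n = 3) in WT and 40.6 ± 5.21 TPM in clnor. Among the single ages it was called at 26 DAP only, with a log2 difference of 0.70 ± 0.17 (SE, adjusted p = 0.008039). That call ended when WT 26 DAP replicate 1 or 2 was left out and when those groups were fitted alone (adjusted p up to 0.1096).

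The most abundant gene of all 54 was Cla97C05G089700, described as a putative alcohol dehydrogenase, with a mean of 1581 TPM over the 30 libraries. Its WT groups stayed between 1533 and 2211 TPM on average at all ages. In clnor it held 3246, 2943 and 1638 TPM at 10 DAP and then 575, 637 and 804 TPM at 26 DAP, 817, 984 and 959 TPM at 34 DAP, and 750.15, 879.93 and 819.86 TPM at 42 DAP. At the last 3 ages every clnor library was below every WT library. The log2 differences were -1.55 ± 0.24 at 26 DAP (SE, adjusted p = 0.0001195), -1.26 ± 0.24 at 34 DAP (adjusted p = 0.0002287) and -1.24 ± 0.24 at 42 DAP (adjusted p = 0.0003221).

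Cla97C01G001290, another putative alcohol dehydrogenase, held 129, 95.5 and 111 TPM in WT at 34 DAP and 12.3, 7.18 and 7.71 TPM in clnor. Its groups stood apart without overlap, and its log2 difference was -3.51 ± 0.39 (SE, adjusted p = 4.387e-07). At 42 DAP the levels were 62.5 ± 4.96 TPM (SD, n = 3) in WT and 8.74 ± 0.542 TPM in clnor, a log2 difference of -2.70 ± 0.39 (SE, adjusted p = 1.304e-05).

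The less abundant Cla97C01G017520 was lower in clnor at both ages as well. Its levels at 42 DAP were 7.51 ± 1.9 TPM (SD, n = 3) in WT and 1.7 ± 0.812 TPM in clnor, a log2 difference of -1.68 ± 0.41 (SE, adjusted p = 0.003119). At 34 DAP the log2 difference was -1.58 ± 0.41 (adjusted p = 0.003873). Cla97C01G013600 (alcohol dehydrogenase-like 6) was lower by a log2 difference of -0.95 ± 0.18 at 34 DAP (adjusted p = 0.000187) and -0.71 ± 0.18 at 42 DAP (adjusted p = 0.003438). The allyl alcohol dehydrogenase-like gene Cla97C09G175210, named after an enzyme that acts on unsaturated alcohols, was lower at 34 DAP, with 183 ± 36.8 TPM in WT and 114 ± 24.6 TPM in clnor. Its log2 difference was -0.69 ± 0.19 (SE, adjusted p = 0.00539), and leaving out clnor replicate 2 ended the call (adjusted p = 0.05046).

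The other alcohol dehydrogenase calls at 34 DAP were higher in clnor. Cla97C05G096560 held 2.62, 2.52 and 1.02 TPM in WT and 10.3, 4.99 and 4.31 TPM in clnor, a log2 difference of 1.27 ± 0.44 (SE, adjusted p = 0.02532). It was also higher at 26 DAP (1.57 ± 0.44, adjusted p = 0.01739) and 42 DAP (1.26 ± 0.44, adjusted p = 0.03072). Each call hung on single libraries. At 26 DAP these were WT replicate 3 and clnor replicates 1 and 2, at 34 DAP WT replicate 3 and clnor replicate 1, and at 42 DAP WT replicates 2 and 3 and clnor replicates 1 and 3 (adjusted p up to 0.1309 without one of them, and up to 0.2597 with quantile normalization). The 26 DAP call also ended with the compared groups fitted alone. Cla97C02G027070 was higher by 0.60 ± 0.19 at 34 DAP (adjusted p = 0.01481), and leaving out WT replicate 1 ended that call (adjusted p = 0.09818). The zinc-containing Cla97C06G110610 was higher by 0.50 ± 0.18 (adjusted p = 0.02827), a call that ended with upper-quartile scaling, with the compared groups fitted alone, or when any of WT replicates 2 and 3 and clnor replicates 1 and 3 was left out (adjusted p up to 0.1649). Cla97C02G027060 was lower at 42 DAP alone among the single ages (-0.93 ± 0.29, adjusted p = 0.01529), a call that ended when replicate 1 of WT or replicate 3 of clnor at that age was left out (adjusted p up to 0.07039). Cla97C04G070330 and the zinc-binding Cla97C05G092340 were called in no genotype comparison, with group means of 42.5 to 81.9 TPM and 29.3 to 49.2 TPM.

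Summed over the class, alcohol dehydrogenase TPM at 34 DAP was 5162 ± 230.8 in WT (SD, n = 3) and 1786 ± 456 in clnor. At 10 DAP the sums were 2487 ± 479.9 and 3285 ± 719.9 TPM, and the libraries overlapped. Cla97C05G089700 made up 42.8 to 79.4% of the group sums. The lowest share was that of WT at 34 DAP, the group in which the consecutive pair peaked.

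**Figure D2:**
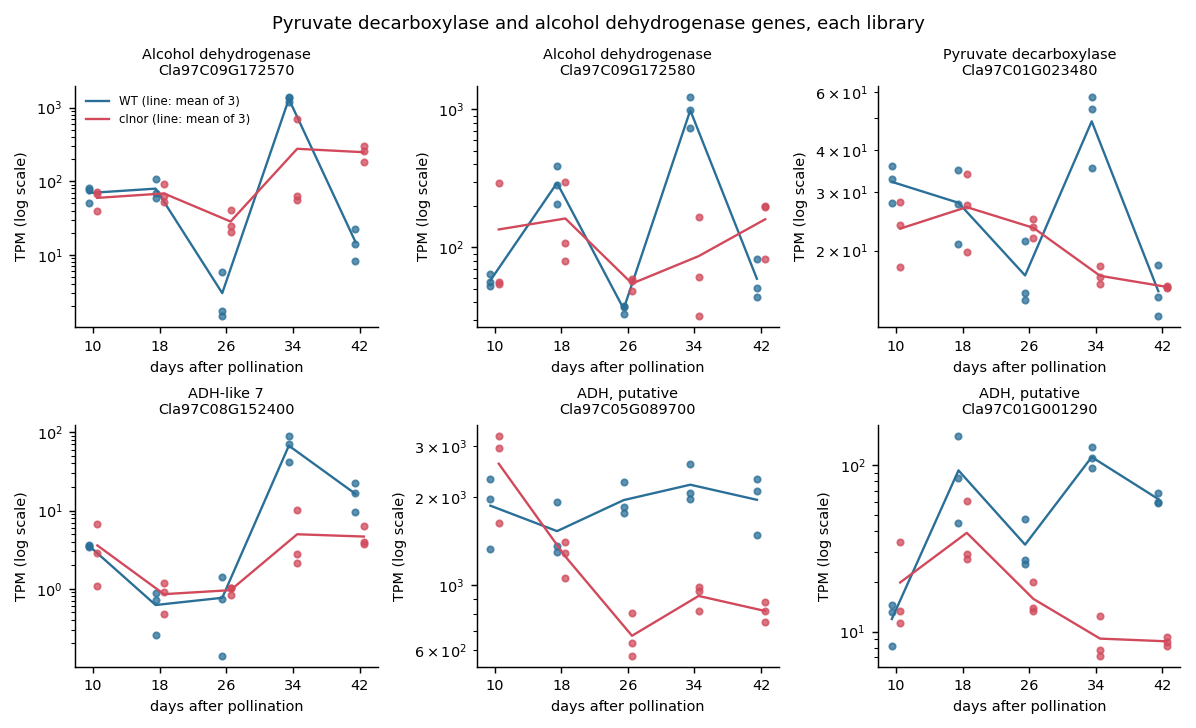
TPM (log axis) of the pyruvate decarboxylase and 5 alcohol dehydrogenase genes against days after pollination, with 1 point per library and a line through the mean of 3 libraries in WT (blue) and clnor (red). Cla97C09G172570, Cla97C09G172580, Cla97C01G023480 and Cla97C08G152400 have their highest WT libraries at 34 DAP, and Cla97C09G172570 has a single clnor library at 709 TPM there, far above the other clnor libraries.

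The aldehyde dehydrogenase class is counted here as matched by name, with the 3 semialdehyde dehydrogenases and the 2 phosphopantetheinyl transferases. Of its 16 tested genes, 8 were higher in clnor at 34 DAP (50% against 27.4% of all tested genes) and 3 were lower (18.8% against 12.1%). Quantile normalization ended 4 of the 8 higher calls, so this split depended on scaling, and calls over all genes were more often higher than lower too. At 42 DAP 4 were higher (25% against 18.8% of all tested genes) and 3 lower (18.8% against 13.8%). Cla97C09G163100, aldehyde dehydrogenase family 7 member B4, belongs to a family known in Arabidopsis for induction by stress. Its libraries at 34 DAP held 59.1, 68.8 and 80.3 TPM in WT and 212, 374 and 370.17 TPM in clnor. At 42 DAP they held 57.6, 71.1 and 82.7 TPM in WT and 368, 272 and 354 TPM in clnor. Every clnor library lay above every WT library at both ages. The log2 differences were 2.15 ± 0.33 at 34 DAP (SE, adjusted p = 2.332e-05) and 2.22 ± 0.33 at 42 DAP (adjusted p = 1.891e-05).

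Cla97C11G221830 and Cla97C11G221840 have consecutive identifiers and were both higher in clnor at 34 DAP. Cla97C11G221830 held 49.6, 60.3 and 54.7 TPM in WT and 109.6, 112 and 156 TPM in clnor, a log2 difference of 1.17 ± 0.28 (SE, adjusted p = 0.00176). It had been higher at 26 DAP too, with 34 ± 6.97 TPM (SD, n = 3) in WT and 106 ± 11.2 TPM in clnor and a log2 difference of 1.62 ± 0.28 (SE, adjusted p = 0.0003218). By 42 DAP its libraries overlapped, with 59.5 ± 8.67 TPM in WT and 57.3 ± 6.39 TPM in clnor. Cla97C11G221840 held 25.1, 29.9 and 32.9 TPM in WT and 97.5, 59.3 and 91.2 TPM in clnor at 34 DAP, a log2 difference of 1.44 ± 0.20 (SE, adjusted p = 5.982e-06). The groups of both genes were apart at 34 DAP.

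The other higher calls were of genes with smaller differences. Cla97C07G133800, aspartate-semialdehyde dehydrogenase of the route to lysine, threonine and methionine, was higher by a log2 difference of 0.86 ± 0.21 at 34 DAP (SE, adjusted p = 0.002264) and 0.88 ± 0.21 at 42 DAP (adjusted p = 0.002589). Cla97C07G135970 was higher by 0.77 ± 0.17 at 34 DAP (adjusted p = 0.0009275) and 1.20 ± 0.17 at 42 DAP (adjusted p = 8.793e-06). The phosphopantetheinyl transferase-like Cla97C05G103490 was higher at 34 DAP by 0.64 ± 0.16 (adjusted p = 0.002475). Quantile normalization ended the 34 DAP calls of Cla97C07G135970 (adjusted p = 0.1694) and Cla97C05G103490 (adjusted p = 0.6257).

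Cla97C02G044670 (0.42 ± 0.15, adjusted p = 0.03312) and the methylmalonate-semialdehyde dehydrogenase Cla97C01G017570 (0.37 ± 0.14, adjusted p = 0.03636) had the smallest of the higher calls at 34 DAP. Both calls ended with either scaling (adjusted p up to 0.6315). That of Cla97C02G044670 also ended without WT replicate 1 or 2 or clnor replicate 1 or 3, and that of Cla97C01G017570 without any single library of that age. Cla97C02G042820 was called at 42 DAP (1.25 ± 0.43, adjusted p = 0.02842) and lost that call with quantile normalization or without replicate 1 or 3 of either genotype (adjusted p up to 0.1224). Cla97C09G178020, a methylmalonate-semialdehyde dehydrogenase of valine breakdown, was called in no genotype comparison, with 248 ± 25.4 TPM in WT (SD, n = 3) and 278 ± 81.8 TPM in clnor at 34 DAP. The transferase-like Cla97C05G099740 was called in no comparison at all, and its group means ran from 23.8 to 40.0 TPM. Cla97C02G042440 (aldehyde dehydrogenase 1) was called only in the average over ages, lower in clnor by -0.45 ± 0.14 (adjusted p = 0.01379).

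The lower calls were fewer and included abundant genes. Cla97C06G126540, a putative aldehyde dehydrogenase, held 354, 385 and 378 TPM in WT at 34 DAP and 88.1, 159.52 and 109.75 TPM in clnor. It was lower by a log2 difference of -1.91 ± 0.26 at 26 DAP (SE, adjusted p = 2.713e-05), -1.68 ± 0.26 at 34 DAP (adjusted p = 2.402e-05) and -1.62 ± 0.26 at 42 DAP (adjusted p = 4.468e-05). The libraries of the genotypes did not overlap at these 3 ages.

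Betaine aldehyde dehydrogenase, Cla97C06G126280, makes the osmoprotectant glycine betaine, and loss of a rice counterpart is known to give fragrant grain. It held 349.7, 311 and 313 TPM in WT at 34 DAP and 195, 178 and 159 TPM in clnor. At 42 DAP it held 391, 313 and 379.5 TPM in WT and 203, 204 and 187 TPM in clnor. All clnor libraries lay below all WT libraries. The log2 differences were -0.87 ± 0.25 at 34 DAP (SE, adjusted p = 0.007619) and -0.86 ± 0.25 at 42 DAP (adjusted p = 0.01026). Cla97C06G114060 was lower at 42 DAP, with 8.39 ± 0.614 TPM (SD, n = 3) in WT and 2.93 ± 0.355 TPM in clnor and a log2 difference of -1.26 ± 0.23 (SE, adjusted p = 0.0002216). Cla97C01G013460 was lower at 34 DAP by -0.47 ± 0.17 (adjusted p = 0.03217), and that call ended without any single library of the age other than clnor replicate 2 (adjusted p up to 0.09408).

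Rises and falls left the class total about level. Summed aldehyde dehydrogenase TPM at 34 DAP was 1335 ± 36.1 in WT (SD, n = 3) and 1373 ± 167 in clnor, and the libraries overlapped. The most abundant gene was Cla97C06G126540 in WT and Cla97C09G163100 in clnor at 34 and 42 DAP.

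**Figure D3:**
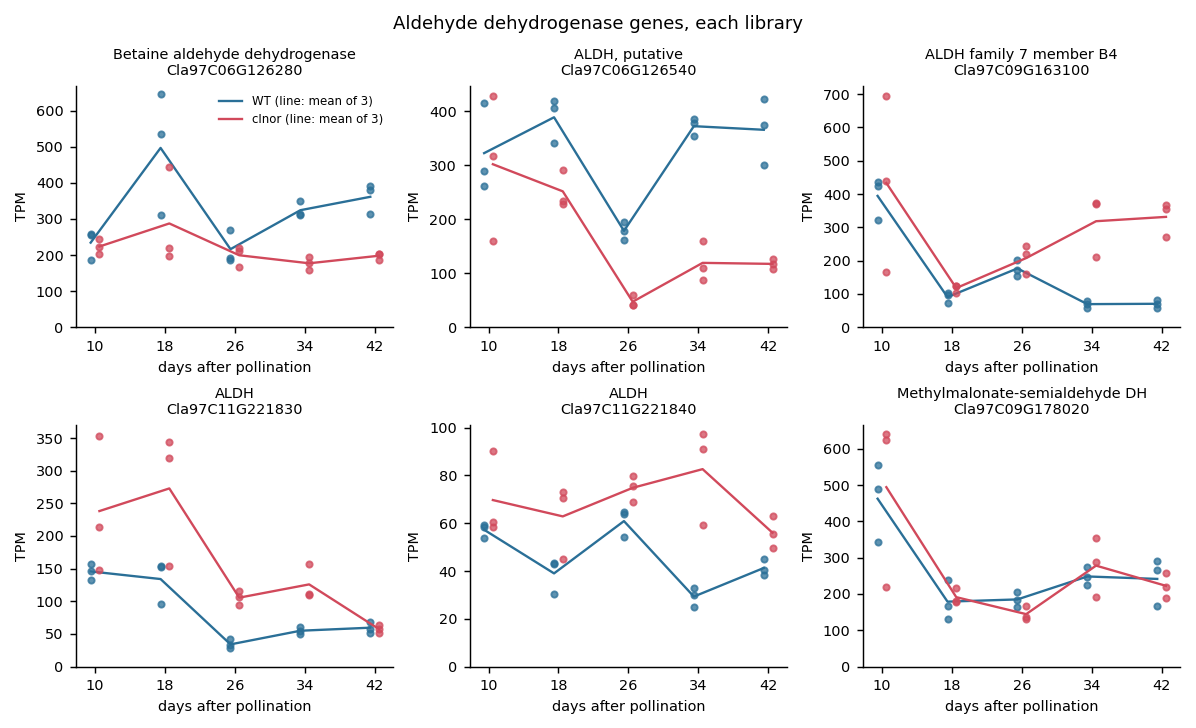
TPM (linear axis from 0) of 6 aldehyde dehydrogenase genes against days after pollination, with 1 point per library and a line through the mean of 3 libraries in WT (blue) and clnor (red). At 34 DAP the clnor points of Cla97C09G163100, Cla97C11G221830 and Cla97C11G221840 lie above the WT points, those of Cla97C06G126280 and Cla97C06G126540 lie below, and those of Cla97C09G178020 overlap.

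The 9 terpene synthases share the description terpene synthase 10-like, and their identifiers run from Cla97C02G027100 to Cla97C02G027230. Only Cla97C02G027100 and Cla97C02G027120 were high enough to test, and 5 of the others were listed at 0 in every library. Cla97C02G027120 held 28.7, 11.4 and 9.02 TPM in WT at 42 DAP and 192, 330.33 and 262 TPM in clnor. At 26 DAP its level was 1.28, 0.81 and 5.13 TPM in the WT libraries against 49.8, 48.0 and 126 TPM in the clnor libraries. Every clnor library exceeded every WT library at both ages. The log2 differences were 4.54 ± 0.73 at 26 DAP (SE, adjusted p = 0.0001939) and 4.05 ± 0.73 at 42 DAP (adjusted p = 0.0001722).

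At 34 DAP Cla97C02G027120 held 19.4, 8.91 and 14.5 TPM in WT, against 47.2, 128 and 52.9 TPM in clnor. The libraries were apart here too, and the log2 difference was 2.25 ± 0.73 (SE, adjusted p = 0.0174). Leaving out replicate 2 of either genotype ended this call (adjusted p up to 0.09339). At 10 DAP the clnor libraries already lay above the WT libraries, at 41.5, 66.3 and 24.9 TPM against 7.31, 12.3 and 20.4 TPM, without a call.

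Cla97C02G027100 moved the other way. At 26 DAP it held 15.2, 13.0 and 7.76 TPM in WT and 1.38, 0.74 and 0.84 TPM in clnor, a log2 difference of -2.68 ± 0.64 (SE, adjusted p = 0.005718). At 42 DAP it was low in both genotypes, at 0.203 ± 0.127 TPM in WT (SD, n = 3) and 0.403 ± 0.0551 TPM in clnor. It stood at 1 TPM or more in 12 of the 30 libraries, the fewest of the 35 genes.

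**Figure D4:**
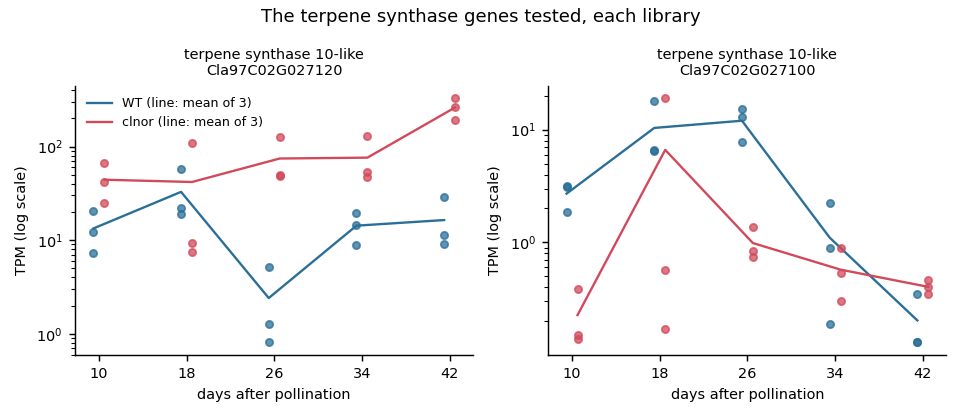
TPM (log axis) of the 2 tested terpene synthase genes against days after pollination, with 1 point per library and a line through the mean of 3 libraries in WT (blue) and clnor (red). For Cla97C02G027120 the clnor points lie above the WT points at 26, 34 and 42 DAP, and for Cla97C02G027100 they lie below at 26 DAP, while at 18 DAP single clnor libraries of both genes reach or pass the WT level.

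At 18 DAP the result rested on the libraries that stood with the other genotype. Without WT replicate 3 limma called 6 genes, without clnor replicate 3 it called 7, and without both it called 9. The share of all tested genes called in these fits was not counted, so the counts have no background beside them. The 9 were 7 lower and 2 higher in clnor. Among them were Cla97C02G027100 (-3.13 ± 0.40, adjusted p = 2.619e-05), Cla97C06G126280 (-1.49 ± 0.19, adjusted p = 2.339e-05), Cla97C01G001290 (-1.95 ± 0.39, adjusted p = 0.001443) and Cla97C11G221830 (1.45 ± 0.29, adjusted p = 0.001119). Cla97C02G027120 was lower in clnor there (-1.96 ± 0.67, adjusted p = 0.04186). In the full set the clnor libraries of that gene held 7.52, 9.41 and 108 TPM at 18 DAP, and replicate 3 lay above all 3 WT libraries (22.2, 57.1 and 19.1 TPM). At 10 DAP leaving out clnor replicate 1 gave 1 call, Cla97C05G103490 (0.63 ± 0.16, adjusted p = 0.0383).

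Within WT, 17 of the 35 genes changed from 10 to 34 DAP (48.6% against 48.5% of all tested genes), 9 upward (25.7% against 19.1%) and 8 downward (22.9% against 29.4%). The shares differed by class. Of 16 alcohol dehydrogenases 8 rose (50% against 19.1% of all tested genes) and 2 fell (12.5% against 29.4%), and the pyruvate decarboxylase rose. Of 16 aldehyde dehydrogenases 0 rose (against 19.1%) and 6 fell (37.5%, not far from the 29.4% of all tested genes). The largest rises were Cla97C09G172570 (log2 difference 4.24 ± 0.62, adjusted p = 8.313e-06), Cla97C09G172580 (4.04 ± 0.57, adjusted p = 5.428e-06), Cla97C08G152400 (3.85 ± 0.44, adjusted p = 3.586e-07) and Cla97C01G001290 (3.15 ± 0.39, adjusted p = 1.008e-06). The largest falls were Cla97C09G163100 (-2.49 ± 0.33, adjusted p = 2.471e-06), Cla97C11G221830 (-1.39 ± 0.28, adjusted p = 0.0002375) and Cla97C06G110610 (-1.32 ± 0.18, adjusted p = 2.709e-06). The rise of the pyruvate decarboxylase Cla97C01G023480 (0.57 ± 0.21, adjusted p = 0.03119) ended without WT replicate 1 or 3 of either age and when those groups were fitted alone (adjusted p up to 0.144).

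Within clnor, 9 genes changed from 10 to 34 DAP (25.7% against 24.2% of all tested genes), 3 upward (8.57% against 13.2%) and 6 downward (17.1% against 11%). Of the alcohol dehydrogenases 1 rose (6.25% against 13.2%) and 2 fell (12.5% against 11%). Of the aldehyde dehydrogenases 2 rose (12.5% against 13.2%) and 4 fell (25% against 11%). The 4 genes with the largest rises in WT were not called in clnor. Their clnor means at 34 DAP were 275 ± 375 TPM for Cla97C09G172570 (SD, n = 3), 86.5 ± 71.0 TPM for Cla97C09G172580, 4.98 ± 4.39 TPM for Cla97C08G152400 and 9.08 ± 2.84 TPM for Cla97C01G001290. The largest fall in clnor was that of Cla97C05G089700 (-1.45 ± 0.24, adjusted p = 0.0001368), a gene that was not called in WT over the same interval. The largest rise was that of Cla97C07G133800 (1.15 ± 0.21, adjusted p = 0.0003898). With the clnor groups fitted alone the count was 3, and the share of all tested genes called in that fit was not counted.

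**Figure D5:**
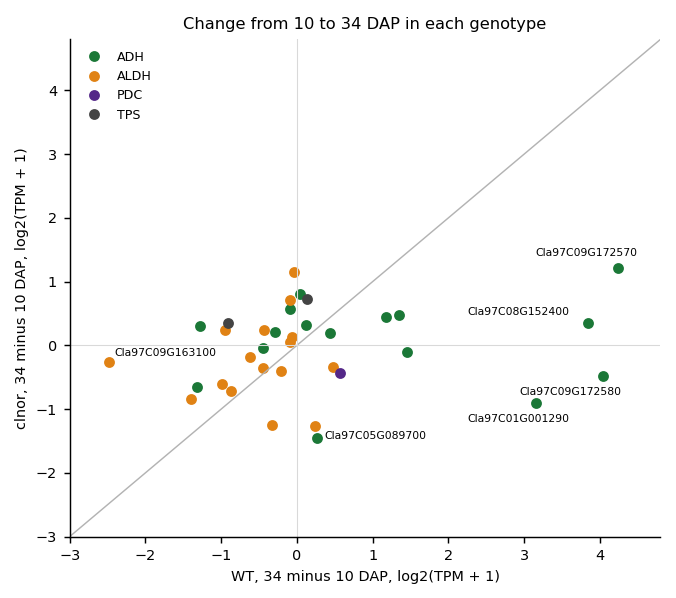
The log2(TPM + 1) difference between 34 and 10 DAP in WT (x axis) and in clnor (y axis) for the 35 tested genes, coloured by class, with a grey line where both are equal. Cla97C09G172570, Cla97C09G172580, Cla97C08G152400 and Cla97C01G001290 lie at 3.15 to 4.24 on the WT axis and far below the line, and Cla97C09G163100 lies at -2.49 on the WT axis.

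From 10 to 42 DAP, 19 genes changed in WT (54.3% against 50.9% of all tested genes), 10 upward (28.6% against 26.7%) and 9 downward (25.7% against 24.2%). In clnor 18 changed (51.4% against 39.0%), 10 upward (28.6% against 21.5%) and 8 downward (22.9% against 17.5%). That split became 6 and 10 with upper-quartile scaling, where the share of all tested genes was not counted. In WT Cla97C09G172570 had fallen below its first level by then (-2.20 ± 0.62, adjusted p = 0.005042), as had Cla97C01G023480 (-1.05 ± 0.21, adjusted p = 0.0002785), while Cla97C01G017520 had risen (2.38 ± 0.41, adjusted p = 5.327e-05). In clnor Cla97C09G172570 rose (2.06 ± 0.62, adjusted p = 0.01138, and 0.05225 when clnor 10 DAP replicate 2 was left out), and so did Cla97C02G027120 (2.61 ± 0.73, adjusted p = 0.007033). The WT and clnor changes of the same age each rest on the 10 DAP libraries of their own genotype.

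The difference between the genotypes itself changed with age in 18 of the 35 genes (51.4% against 23.1% of all tested genes), by limma's F test over the 4 later ages. These were 8 of 16 alcohol dehydrogenases, 8 of 16 aldehyde dehydrogenases, the pyruvate decarboxylase and Cla97C02G027120. The smallest adjusted p was that of Cla97C08G152410 (1.09e-05), followed by Cla97C09G172570 (2.286e-05).

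Other genes on the routes to volatiles were matched by description and compared at 34 DAP, where 39.4% of all tested genes were called, 27.4% higher and 12.1% lower. Of 24 tested genes of fatty acid oxidation and desaturation (50 matched), 8 were higher and 5 lower in clnor (54.2% called). Their median log2 difference was 0.03, where that of all genes was 0.20. The peroxisomal 3-ketoacyl-CoA thiolase Cla97C05G084200, an enzyme of fatty acid breakdown, held 807, 848 and 832 TPM in WT and 109, 124 and 98.6 TPM in clnor. The groups were far apart, with a log2 difference of -2.90 ± 0.41 (SE, adjusted p = 8.778e-06). The lipoxygenase Cla97C02G049640, of a family that oxidises fatty acids ahead of aldehyde formation, held 7.79, 10.98 and 11.4 TPM in WT and 95.6, 74.2 and 77.1 TPM in clnor. Its log2 difference was 2.92 ± 0.40 (SE, adjusted p = 6.228e-06). These 2 genes had the largest fall and rise of the list at 34 DAP and were chosen after their values were seen.

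Of 7 tested genes of the amino acid route (9 matched, aminotransferases and decarboxylases), 4 were higher and 1 lower at 34 DAP (71.4% called), with a median log2 difference of 0.79. Of these 5 calls, 2 were left without WT replicate 1, 3 without clnor replicate 3 and 3 with quantile normalization. Of 37 tested genes with isoprenoid words in their description (41 matched), 4 were higher and 4 lower (21.6% called, below the 39.4% of all tested genes). Their median log2 difference was 0.07. The match was by name and took in more than terpene precursor supply, such as prenyl transferases for proteins, protoheme, tRNA and adenylate. The largest fall was of such a gene, Cla97C07G128470 (log2 difference -3.41 ± 0.43, adjusted p = 2.007e-06). The share called among terpene precursor genes alone was not counted. Farnesyl pyrophosphate synthase 1, Cla97C01G011050, which makes a terpene precursor, was the largest rise of the list (log2 difference 1.50 ± 0.25, adjusted p = 7.104e-05). This rise and the largest fall were likewise chosen after their values were seen. Neither of the carotenoid cleavage dioxygenases was high enough to test. Cla97C10G197390, described as a senescence-associated carboxylesterase 101 and matched by name alone, was higher (0.93 ± 0.18, adjusted p = 0.0002201). Whether it acts on volatile esters was not tested. Of the cinnamyl alcohol dehydrogenases, Cla97C02G033300 was lower at 34 DAP (-1.09 ± 0.35, adjusted p = 0.01483) and Cla97C05G092680 was not called at that age.

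Genes matched by words of the low-oxygen response (lactate dehydrogenase, hemoglobin, hypoxia) numbered 7, of which 6 were tested. They gave 2 higher calls (33.3% against 27.4% of all tested genes) and 2 lower calls (33.3% against 12.1%) at 34 DAP. Pyruvate decarboxylase and alcohol dehydrogenase are textbook genes of that response in plants. The hypoxia-responsive family gene Cla97C11G212740 held 510.41, 341 and 593 TPM in WT at 34 DAP and 4.17, 11.3 and 6.05 TPM in clnor. At 26 DAP all 3 WT libraries were listed at 0, and at 42 DAP WT libraries held 18.6, 4.06 and 8.59 TPM. Its peak thus fell in the same WT group as those of Cla97C09G172570, Cla97C09G172580 and Cla97C01G023480. The log2 difference at 34 DAP was -5.94 ± 0.93 (SE, adjusted p = 2.939e-05). The hypoxia-responsive Cla97C03G067710 was lower by -1.63 ± 0.29 (adjusted p = 0.0001442). The L-lactate dehydrogenase Cla97C01G004140 was not called at that age. Cla97C10G200870, described as a mitochondrial-like D-lactate dehydrogenase of the cytochrome type and matched by name alone, was higher in clnor, by 1.84 ± 0.37 (adjusted p = 0.0004651). The other higher call was the non-symbiotic hemoglobin Cla97C09G179280, listed at 0 in the 3 WT libraries at 34 DAP and at 0.22, 1.32 and 0.94 TPM in clnor. It ended without any single WT library or without clnor replicate 2 or 3 (adjusted p up to 0.164). The more abundant non-symbiotic hemoglobin Cla97C05G103160 (mean of 23.2 TPM over the 30 libraries) was not called at 34 DAP. Limma called it higher in clnor at 18 DAP, at 26 DAP and averaged over ages. Its 18 DAP call ended in 3 of 14 alternatives, and its 26 DAP call in 0 of 13. Within WT from 10 to 34 DAP the list went both ways. Of the 6 tested genes 2 rose (33.3% against 19.1% of all tested genes) and 3 fell (50% against 29.4%). Whether low oxygen lies behind the WT peaks at 34 DAP was not tested.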

How the data were processed

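RNA-seq of watermelon flesh gave 1 table of deposited TPM values per gene, computed by the authors from 30 libraries. The submitters' processing notes name TopHat2, HISAT2, Cufflinks and StringTie, without versions or roles, and the build of the genome is not given in the sources used here. TPM keep no read depth, so the precision of low values is unknown. Every value column of the table matched a sample label, and 0 columns were left unused.

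The test covered genes that reached 1 TPM in 3 or more libraries. Values were taken as log2(TPM + 1), a scale that understates the change of low genes, and fitted with limma 3.58.1 (R 4.3.3) as 10 groups with 20 residual degrees of freedom, empirical Bayes with trend and robust settings, and two-sided tests. P-values were Benjamini-Hochberg adjusted within each comparison over all 16503 tested genes. An F test over the 4 later ages compared the genotype difference with that at 10 DAP. The scripts were checked on simulated data with known changes.

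The members and gene lists were chosen with earlier results of these data known. Values are given for the 5 most abundant tested genes of each class, the 3 largest called rises and falls of each comparison of genotypes or of WT ages with at least 5 TPM in the higher group, and the 3 smallest F test p-values. The other members were named after their values were seen. The labels do not say whether replicates are separate fruits, so p-values here reflect only the spread of libraries, which may be technical. No reference genome or sequence table was used, so no positions or sequences are given. Alternatives were another pseudocount, other filters, upper-quartile and quantile scaling, fits of the compared groups alone, a replicate block and leaving out libraries.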

Additional observations from a re-analysis of the deposited data

Results flagged for a closer look

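For 18 genes (51.4% of the 35 against 23.1% of all tested genes) the clnor minus WT difference changed with age. This was by limma's F test over all 16503 tested genes. Among the alcohol dehydrogenases the adjusted p was 1.09e-05 for Cla97C08G152410, 2.286e-05 for Cla97C09G172570, 0.0001202 for Cla97C01G001290, 0.0002373 for Cla97C08G152400, 0.0003819 for Cla97C09G172580, 0.0005351 for Cla97C05G089700, 0.01791 for Cla97C01G013600 and 0.04942 for Cla97C01G017520. The pyruvate decarboxylase Cla97C01G023480 had 0.0006238 and the terpene synthase Cla97C02G027120 had 0.005321. Among the aldehyde dehydrogenases the adjusted p was 0.0007997 for Cla97C09G163100, 0.001532 for Cla97C07G135970, 0.003127 for Cla97C06G126540, 0.006918 for Cla97C06G114060, 0.01325 for Cla97C11G221840, 0.02206 for Cla97C07G133800, 0.02501 for Cla97C11G221830 and 0.03871 for Cla97C01G017570. Cla97C09G172570 was the gene whose called differences had both signs, with log2 differences of 2.98 at 26 DAP, -3.25 at 34 DAP and 4.03 at 42 DAP. The calls of Cla97C01G017520 and Cla97C01G017570 ended in 27 and 18 of 37 alternatives, those of Cla97C07G133800 and Cla97C11G221830 without single libraries (adjusted p up to 0.06286), and that of Cla97C11G221840 without WT 34 DAP replicate 1 (adjusted p = 0.0505).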

How the results depend on the processing

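No result named for a single gene reversed its direction, and of 194 such results 133 were called under every alternative. The count of calls at 10 DAP was 0, and 0 to 1 when single libraries were left out. At 18 DAP it was 0, with 0 to 7 without single libraries and 9 without replicate 3 of both genotypes, which also gave 23 averaged over ages and 23 by the F test. At 34 DAP the 25 calls became 20 to 22 without single libraries, at 42 DAP the 18 became 15 to 18, and the F test gave 15 to 23. The share of all tested genes called was not counted in any alternative fit. The counts of this section thus have no background beside them. Fitted alone, the clnor groups gave 3 calls from 10 to 34 DAP in place of 9 and 11 from 10 to 42 DAP in place of 18. That alternative has fewer samples to estimate the spread. The replicate numbers were not treated as pairs. Of 15 same-numbered pairs, 4 had a correlation of deviations over 0.1 (range -0.4068 to 0.2466). The same-numbered correlations were all positive at 26 DAP (0.0534, 0.1869 and 0.1561) and at 34 DAP (0.2466, 0.0247 and 0.1091). With 3 libraries per group this check cannot settle whether libraries were paired at those ages. With the replicate block the counts were 0, 0, 8, 25 and 18 from 10 to 42 DAP, 24 averaged over ages, 17 and 20 within WT at 34 and 42 DAP, 9 and 18 within clnor, and 17 by the F test. Without clnor 10 DAP replicate 3 some changes within clnor moved by over 1.5 times. The fall of Cla97C11G221830 to 34 DAP went from -0.84 to -0.51 (adjusted p = 0.1846), and that of Cla97C09G178020 to 42 DAP from -1.005 to -1.51 (adjusted p = 0.0001629). Over all alternatives of single-gene results, 284 of 3762 lost the call, and the cause was not tested.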
